A study of Mus musculus with 39 samples.

Results

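The genes described here encode histone acetyltransferases, the enzymes that place acetyl groups on lysines of histone tails. They are Kat2a, Kat2b, Kat5, Kat6a, Kat6b, Kat7, Kat8, Hat1, Ep300 and Crebbp. Probes were taken where the accession on the array mapped to one of these symbols in the RefSeq mouse annotation. Of the 10 genes, 9 had a probe, by 11 probes in all, out of 16283 named genes and 39517 probes tested. No probe mapped to Kat6a, which is named only. All 9 genes passed the filter on dim signals. In GRCm38.p6 the genes whose levels differed most lie at chr17:53566774-53672721 (Kat2b), chr16:4081334-4213957 (Crebbp), chr2:71389260-71441622 (Hat1) and chr11:95271853-95310246 (Kat7). Where in each transcript a probe lies was not analysed here.

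The 39 arrays (1 colour, Agilent) measured RNA of (B6xDBA/2)F1 mice in 7 groups. OC (n = 7) were unfertilised oocytes at metaphase II. IVF (n = 6) were fertilised embryos at the 2-cell stage, after 24 h of culture. Embryos made by somatic cell nuclear transfer (SCNT), with cumulus cells as nuclear donors, were likewise taken at the 2-cell stage after 24 h. TSA(-) (n = 8) were such clones with no further treatment, and TSA(+) (n = 6) had 5 nM trichostatin A (TSA), an inhibitor of histone deacetylases, for 8 h from activation. Spi-C 1.0 and Spi-C 0.1 (n = 4 each) were clones without TSA injected at the pronuclear stage with mRNA of Spi-C, an ETS family transcription factor, at 1.0 or 0.1 mg/ml. No mock-injected clones were analysed here, so the injection itself and the mRNA cannot be told apart. Cumulus (n = 4) were the donor cells. Each array held RNA of 10 pooled oocytes or embryos, or of 500 cumulus cells, after 2 rounds of linear amplification. The labels do not say whether pools of a group came from separate females, so p-values measure the spread between these arrays.

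As background, acetyltransferases use acetyl-CoA to acetylate lysines, and the deacetylases that TSA inhibits take the acetyl groups off again. Acetylated histones mark active promoters and enhancers and are read by bromodomain proteins. In mouse development the embryonic genome is activated at the 2-cell stage, while maternal mRNA stored in the oocyte is degraded. The enzymes fall into families. KAT2A (GCN5) and KAT2B (PCAF) are the catalytic subunits of the SAGA and ATAC coactivator complexes. EP300 and CREBBP (CBP) are large coactivators recruited by transcription factors. KAT5 (TIP60), KAT6B (MORF), KAT7 (HBO1) and KAT8 (MOF) belong, with KAT6A (MOZ), to the MYST family, whose members work in multisubunit complexes. HAT1 acetylates newly made histone H4 before it is put into chromatin.

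Levels are log2 signal intensities minus the 75th percentile of the same array. A level of 0 is therefore the 75th percentile, and levels of different probes are not compared. The share of probes well above background was 48.7% to 60.0% on the OC arrays, 58.3% to 65.8% on the Cumulus arrays and 66.9% to 77.6% on the embryo arrays. Oocyte markers separated OC from Cumulus (summed log2 level 11.09 to 11.83 against -0.03 to 0.96), and cumulus cell markers did the reverse (0.51 to 1.97 against 7.90 to 8.02). The 2-cell embryo markers were highest in IVF (7.51 to 7.94), above the clones (5.81 to 7.26). Arrays of OC, IVF, TSA(-) and TSA(+) shared slides and scan days in part. TSA(+) and TSA(-) had only 1 slide in common, with 1 array of each, and 3 scan days. The Spi-C arrays (2 slides) and the Cumulus arrays (1 slide) lay on slides and scan days of their own, with another scanner and software version, so that these batches and the groups cannot be told apart in comparisons of Spi-C or Cumulus with other groups.

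The promoters of the 4 genes whose levels differed most between groups, Kat2b, Crebbp, Hat1 and Kat7, are printed below to show the sequence at their start sites. RefSeq (GRCm38.p6) gave promoters of 9 of the 10 genes, each with 250 bases before and 50 after the start, 5′ to 3′ on the gene's strand. Capitals mark matches on either strand to the PU box GAGGAA and the core CGGAAG, both of ETS factors, to the GC box GGGCGG and to CCAAT. These letters were searched in all 32851 promoters of this length, of which 28.3% held GAGGAA, 16.9% CGGAAG, 35.7% GGGCGG and 37.4% CCAAT. A match describes the letters and is not a binding site.
Kat2b, chr17:53566721-53567020, plus strand: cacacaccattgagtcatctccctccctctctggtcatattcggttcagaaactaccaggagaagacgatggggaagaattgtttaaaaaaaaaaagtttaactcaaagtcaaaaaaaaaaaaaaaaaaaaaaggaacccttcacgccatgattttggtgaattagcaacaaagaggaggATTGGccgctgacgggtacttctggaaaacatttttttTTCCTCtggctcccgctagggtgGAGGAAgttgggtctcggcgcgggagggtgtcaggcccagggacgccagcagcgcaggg
Crebbp, chr16:4213355-4213654, minus strand: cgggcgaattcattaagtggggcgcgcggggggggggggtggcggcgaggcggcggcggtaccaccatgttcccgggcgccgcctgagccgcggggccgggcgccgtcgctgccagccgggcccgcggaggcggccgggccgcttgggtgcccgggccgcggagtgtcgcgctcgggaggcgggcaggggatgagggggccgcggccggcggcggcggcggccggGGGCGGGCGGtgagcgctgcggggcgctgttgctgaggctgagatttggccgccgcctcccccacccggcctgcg
Hat1, chr2:71389010-71389309, plus strand: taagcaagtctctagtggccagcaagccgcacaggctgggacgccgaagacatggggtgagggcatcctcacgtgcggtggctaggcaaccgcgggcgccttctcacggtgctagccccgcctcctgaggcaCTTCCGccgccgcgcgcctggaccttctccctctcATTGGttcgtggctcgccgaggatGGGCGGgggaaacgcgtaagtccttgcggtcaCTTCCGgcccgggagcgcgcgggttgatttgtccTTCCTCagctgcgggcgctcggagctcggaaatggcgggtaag
Kat7, chr11:95310197-95310496, minus strand: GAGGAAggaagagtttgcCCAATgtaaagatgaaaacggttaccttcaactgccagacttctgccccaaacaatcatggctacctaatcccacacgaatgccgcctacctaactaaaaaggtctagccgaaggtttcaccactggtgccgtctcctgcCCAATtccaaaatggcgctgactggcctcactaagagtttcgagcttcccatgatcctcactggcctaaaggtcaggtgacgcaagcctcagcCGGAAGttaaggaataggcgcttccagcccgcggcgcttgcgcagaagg
The Kat2b promoter held 2 PU boxes and 1 CCAAT at 47% G and C, against a median of 52.7% over all promoters. The Crebbp promoter held neither ETS motif, 2 overlapping GC boxes and 82% G and C. The Hat1 promoter held 2 CGGAAG, 1 GAGGAA, 1 GGGCGG and 1 CCAAT. The Kat7 promoter held 1 GAGGAA, 1 CGGAAG and 2 CCAAT. Neither TATAAA, held by 13.6% of all promoters, nor TGACGT, the cAMP response element core held by 7.51%, was found in these 4. A second Kat2b start, at chr17:53583876-53584175, held none of the motifs searched.

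**Figure D1:**
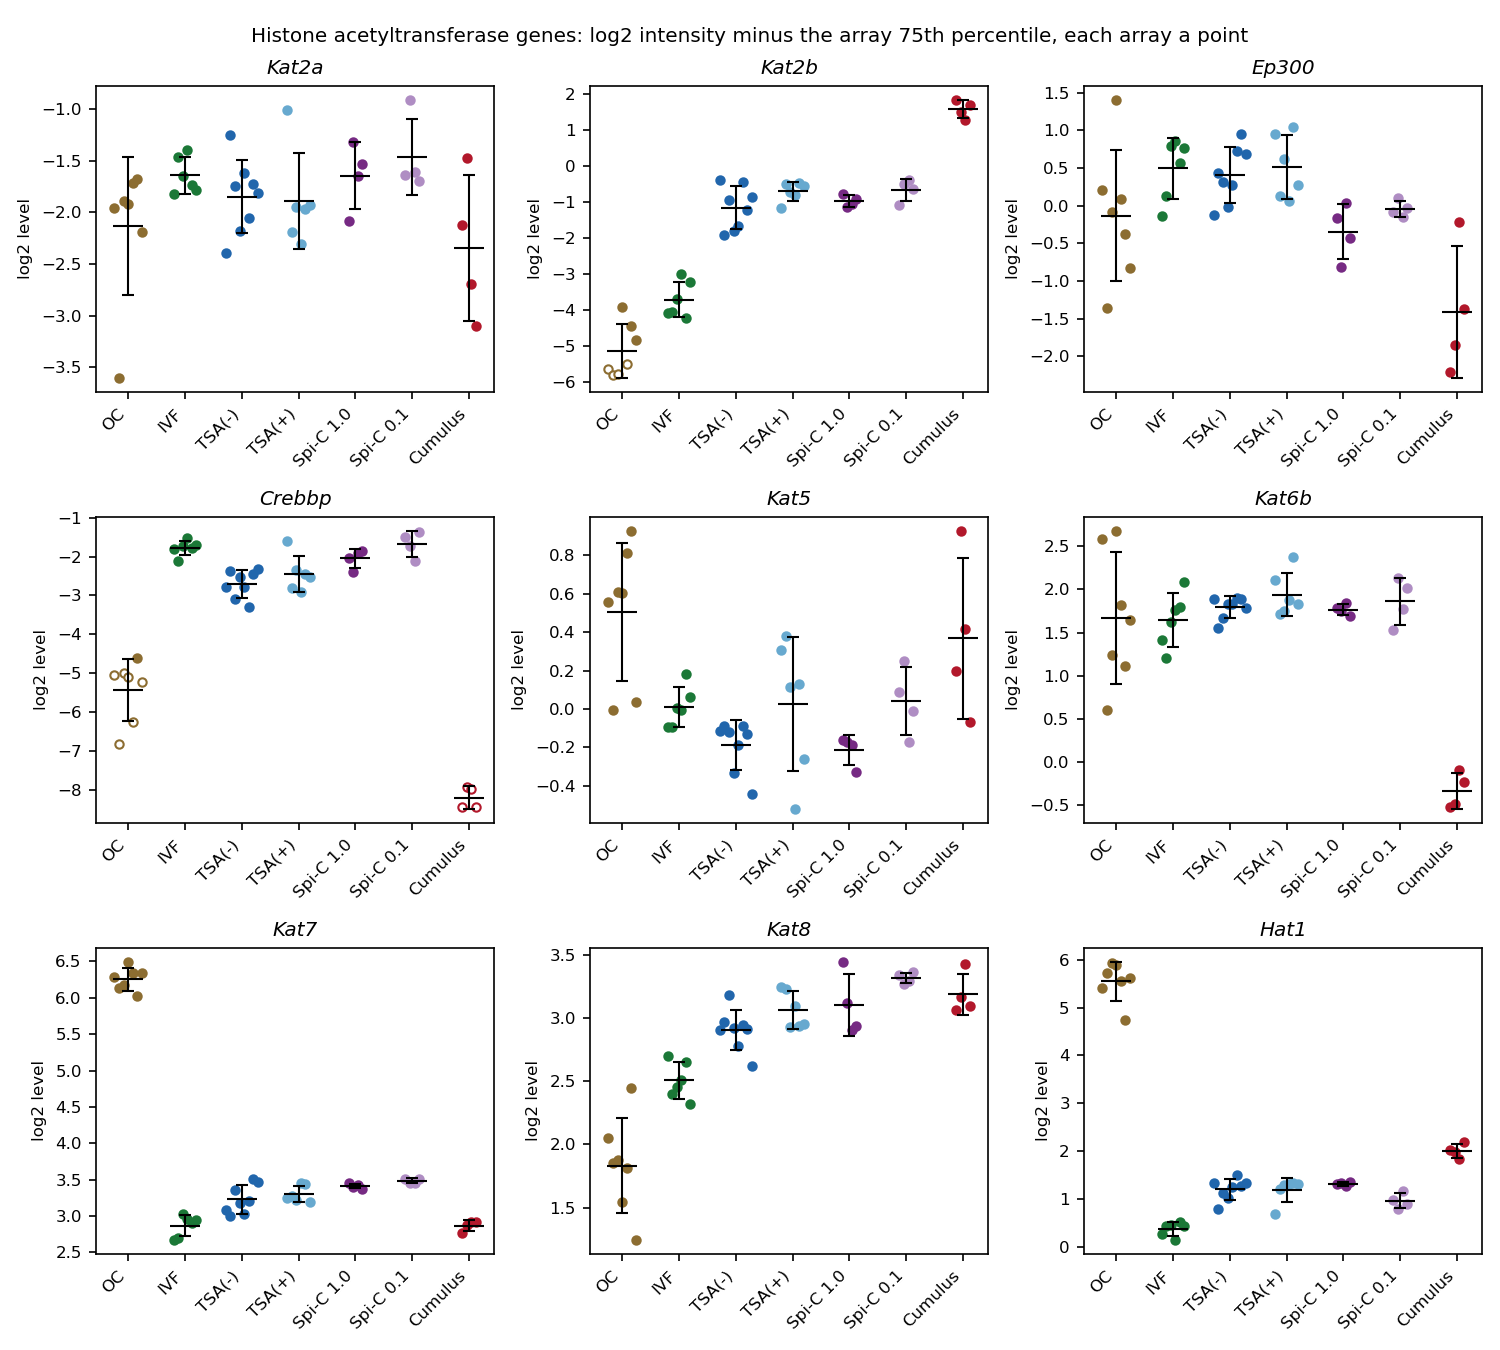
Level of each gene (leading probe) on every array by group, as log2 intensity minus the 75th percentile of the array, with the mean (long bar) and SD (whiskers) of the group. Open points were not well above background. Kat2b in the clones lay between IVF and Cumulus, Hat1 and Kat7 were highest in OC, and Crebbp was lowest in Cumulus and OC.

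Kat2b encodes PCAF, and its level was high in donor cells, low in oocytes and fertilised embryos, and between them in every clone. In OC it ranged from -5.81 to -3.91 (median -5.51), with 3 of 7 arrays well above background. The IVF arrays lay between -4.21 and -3.02 (median -3.87). TSA(-) spanned -1.92 to -0.40 (median -1.10), and TSA(+) spanned -1.16 to -0.48 (median -0.64). Every clone array was therefore above every IVF array, and IVF overlapped OC. The Spi-C 1.0 arrays read -1.13, -1.07, -0.91 and -0.77, and the Spi-C 0.1 arrays -1.10, -0.65, -0.50 and -0.40. The 4 Cumulus arrays read 1.29, 1.50, 1.70 and 1.83, above all clones. The 4 groups of clones overlapped one another.

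Against IVF, Kat2b was 5.86-fold higher in TSA(-) (log2 difference 2.55, SE 0.27, limma adjusted p = 2.94e-09) and 8.04-fold higher in TSA(+) (3.01, SE 0.29, limma adjusted p = 3.84e-10). These comparisons share the IVF arrays. With normexp the differences were 1.85 and 2.26. Within scan days the TSA(-) difference was 1.99 to 2.72 in 4 of 4 days, and that of TSA(+) 2.59 to 3.49 in 3 of 3. A second, dimmer Kat2b probe gave 2.20 and 1.98 (limma adjusted p = 3.31e-05 and 0.000324), although its IVF arrays spread from -6.18 to -2.72 and overlapped the clones. Against Cumulus, Kat2b was 6.69-fold lower in TSA(-) (log2 difference -2.74), and the difference of OC from Cumulus was -6.72. Against IVF, of the 9 cumulus cell markers, none was higher in TSA(-) and 1, Tnfaip6, was lower (log2 difference -2.33, limma adjusted p = 0.00358). Their summed level spanned 2.35 to 3.15 over the IVF arrays, 2.22 to 3.19 over TSA(-) and 3.09 to 3.54 over TSA(+), which thus lay partly above IVF. Amhr2 had a mean of 2.66 in IVF and 2.59 in TSA(-), against 2.25 in Cumulus. The sum over the other 8 markers, a choice made after their values were seen, spanned -0.72 to 0.45 over IVF, -1.38 to -0.14 over TSA(-), -1.91 to -0.51 over TSA(+) and 7.88 to 8.00 over Cumulus. The part of donor cell RNA in the Kat2b levels was not tested. IVF exceeded OC for Kat2b by 1.43 (SE 0.28), but with normexp background correction, which shrinks dim signals, the difference was -0.53 (limma adjusted p = 0.0061), so that its direction rests on the background correction. It was positive within 4 of 4 scan days (1.15 to 2.28), and the dimmer probe, with 1 of 7 OC arrays well above background, gave 2.45 (limma adjusted p = 1.52e-06). With quantile normalisation and median centring it was 0.88 and 0.75, neither called (adjusted p = 0.0128 and 0.0179).

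**Figure D2:**
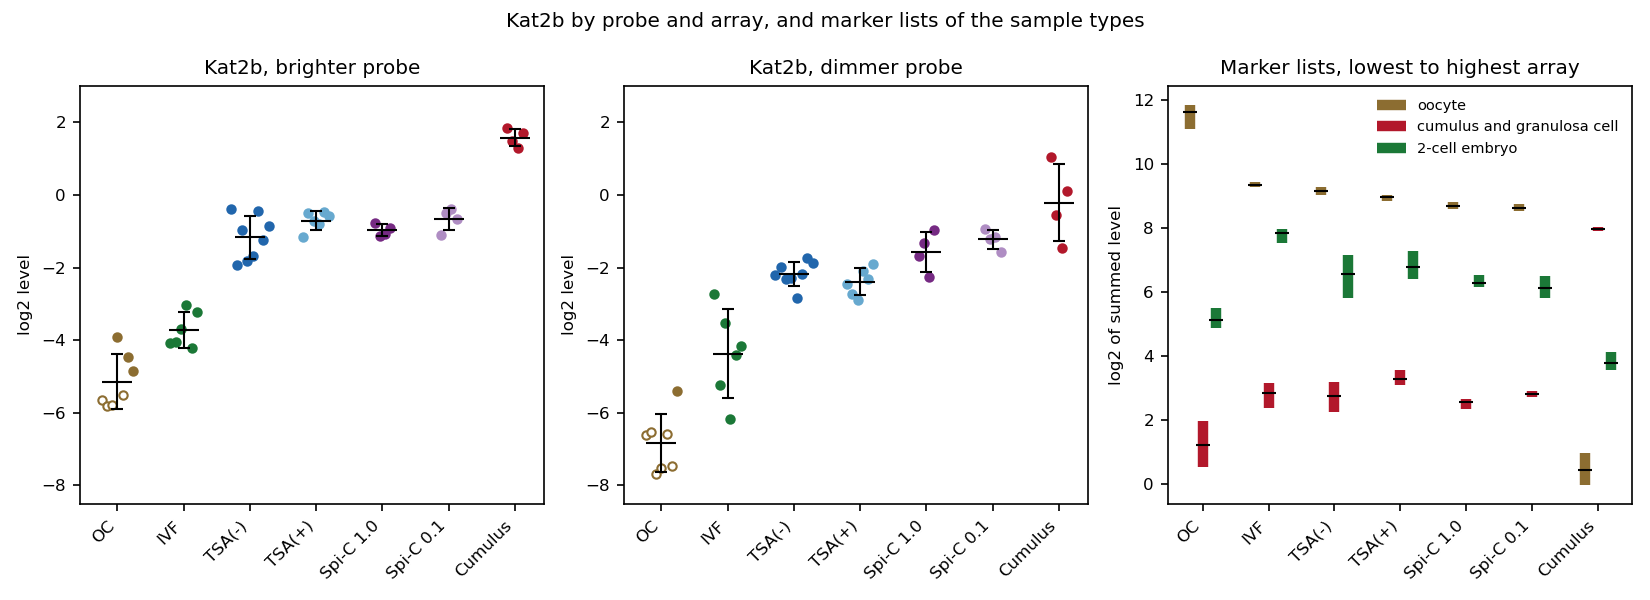
Kat2b on each array by its brighter and its dimmer probe (log2 level, mean and SD, open points not well above background), and the log2 summed level of the oocyte, cumulus cell and 2-cell embryo marker lists per group (bars from the lowest to the highest array, dash at the mean). All clone arrays exceeded the IVF arrays by the brighter probe, while the cumulus cell markers, Amhr2 included, overlapped between TSA(-) and IVF and lay mostly above IVF in TSA(+) (3.09 to 3.54 against 2.35 to 3.15).

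Kat2a, the closest relative of Kat2b, did not share this pattern. Its group means lay between -2.35 (Cumulus) and -1.46 (Spi-C 0.1), and all neighbours in that order overlapped. It passed the test in none of the 9 comparisons. The interval for TSA(-) against IVF was -0.72 to 0.31 on the log2 scale.

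Crebbp encodes CBP, and it was at or near background in oocytes and donor cells but measured in all embryos. In OC it ranged from -6.83 to -4.61 (median -5.10), with 1 of 7 arrays well above background. The Cumulus arrays read -8.45, -8.45, -7.99 and -7.93, none of them well above background. The IVF arrays lay between -2.11 and -1.54 (median -1.75). TSA(-) spanned -3.31 to -2.32 (median -2.65), and TSA(+) spanned -2.92 to -1.61 (median -2.48). The Spi-C 1.0 arrays read -2.41, -2.04, -1.90 and -1.85, and the Spi-C 0.1 arrays -2.12, -1.72, -1.49 and -1.36. OC and Cumulus each stood apart below the embryos, all TSA(-) arrays were below all IVF arrays, and the TSA(+) and Spi-C arrays overlapped IVF.

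Crebbp was higher in IVF than in OC, where 1 of 7 arrays measured it, by 3.66 (SE 0.26, limma adjusted p = 4.13e-15), a difference that was 0.86 with normexp correction. In whole pools, more RNA per cell and a different share of RNA cannot be told apart, here and below. By the measured values TSA(-) embryos were 45.3-fold above Cumulus, where no array was well above background. OC, with 1 of 7 arrays measured, read 6.80-fold above Cumulus. With normexp these differences were 1.42 and 1.33 on the log2 scale, so their sizes rest on the background correction. TSA(-) exceeded OC by 2.74 (SE 0.24), but by only 0.09 with normexp correction (limma adjusted p = 0.495). Against IVF, Crebbp fell by 0.93 in TSA(-), or 1.90-fold (SE 0.25, limma adjusted p = 0.00401). The call was lost without IVF replicate 4 (adjusted p = 0.0116), without TSA(-) replicate 6 (0.0108) and with quantile normalisation (0.0165). It was also lost by Tukey's test (adjusted p = 0.0114). In TSA(+) the difference from IVF was -0.66 (interval -1.20 to -0.12, limma adjusted p = 0.0544), which passed with normexp (-0.54, adjusted p = 0.00289), and TSA(+) against TSA(-) gave 0.26 (interval -0.24 to 0.77). Within scan days, TSA(-) was below IVF in 4 of 4 days, by -1.34 to -0.56.

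Ep300, the paralogue of Crebbp, varied less. By its leading probe the means were 0.51 in TSA(+), 0.50 in IVF, 0.41 in TSA(-), -0.04 in Spi-C 0.1, -0.13 in OC, -0.34 in Spi-C 1.0 and -1.41 in Cumulus, and all neighbours in order of level overlapped. It was 3.53-fold higher in TSA(-) than in Cumulus (limma adjusted p = 1.44e-05), a call lost with median centring (0.95, adjusted p = 0.0156). OC exceeded Cumulus by 1.28 (limma adjusted p = 0.00132), a call lost without Cumulus replicate 1 (1.01, adjusted p = 0.0154). That call was also lost by Tukey's test (adjusted p = 0.0144) and when only OC and Cumulus were fitted (limma adjusted p = 0.0335). OC ranged from -1.36 to 1.41, and IVF against OC (0.63, limma adjusted p = 0.0639) passed without OC replicate 4 (0.88, adjusted p = 0.00521) and with the mean of both probes (0.85, adjusted p = 0.00765), and was -0.05 with median centring. TSA(-) against OC (0.54) passed without OC replicate 4 (0.80, adjusted p = 0.00652). TSA(-) against IVF was -0.09 (interval -0.70 to 0.52). A second probe of Ep300 was not well above background on any OC or Cumulus array.

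Among the MYST genes, Kat7 had the clearest pattern, with its highest level in oocytes. It encodes HBO1, which acetylates histone H3 and H4 at replication origins and in genes. OC ranged from 6.03 to 6.49 (median 6.29), IVF from 2.68 to 3.03 (median 2.92), TSA(-) from 2.997 to 3.51 (median 3.19) and TSA(+) from 3.20 to 3.45 (median 3.26). The Spi-C 1.0 arrays read 3.38, 3.40, 3.43 and 3.45, the Spi-C 0.1 arrays 3.45, 3.46, 3.51 and 3.51, and the Cumulus arrays 2.77, 2.88, 2.91 and 2.92. All OC arrays were above the arrays of every other group.

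From OC to IVF, Kat7 fell by 3.39, (SE 0.10, limma adjusted p = 2.84e-25), and to TSA(-) by 3.03 (SE 0.10). The difference of IVF from OC was -4.07 to -1.48 over all alternative settings. Kat7 was slightly higher than IVF in TSA(-) (0.36, SE 0.10, limma adjusted p = 0.00563) and in TSA(+) (0.44, SE 0.11, limma adjusted p = 0.00177), the latter with an adjusted p of 0.0101 when only IVF and TSA(+) were fitted. The TSA(-) call was lost without any of IVF replicates 1 and 2 and TSA(-) replicates 3, 7 and 8 (0.32 to 0.34, adjusted p = 0.0124 to 0.0201), and with slide as a block (0.30, adjusted p = 0.0953). It was also lost when only IVF and TSA(-) were fitted (limma adjusted p = 0.0385) and with median centring (limma adjusted p = 0.0166). The TSA(-) difference was positive within 4 of 4 scan days (0.19 to 0.56). TSA(-) exceeded Cumulus by 0.36 (limma adjusted p = 0.00608), which turned to -0.51 when arrays were centred on their medians.

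Kat8 encodes MOF, the histone H4 acetyltransferase of the MSL and NSL complexes. It was lowest in OC (1.25 to 2.45, median 1.85) and higher in IVF (2.32 to 2.70, median 2.48), TSA(-) (2.62 to 3.18, median 2.91) and TSA(+) (2.93 to 3.25, median 3.02). The Spi-C 1.0 arrays read 2.91, 2.94, 3.11 and 3.44, the Spi-C 0.1 arrays 3.27, 3.29, 3.34 and 3.36, and the Cumulus arrays 3.06, 3.09, 3.16 and 3.42. Neighbouring groups overlapped all the way. TSA(-) exceeded OC by 1.07 (SE 0.13, limma adjusted p = 2.48e-09). TSA(+) exceeded IVF by 0.56 (SE 0.14, limma adjusted p = 0.00253) with no overlap, while TSA(-) against IVF gave 0.40 (interval 0.13 to 0.67, limma adjusted p = 0.021), which passed with quantile normalisation (0.54, adjusted p = 0.000964) and with normexp (adjusted p = 0.00875). The difference between TSA(+) and TSA(-) was 0.16 (interval -0.11 to 0.43). IVF against OC was 0.67 (limma adjusted p = 4.6e-05) and -0.01 with median centring, so that its direction rests on the scaling.

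Kat6b, which encodes MORF, was level among OC, IVF and all clones (means 1.65 to 1.94) and lower in Cumulus, whose arrays read -0.52, -0.49, -0.24 and -0.09. TSA(-) exceeded Cumulus 4.37-fold (log2 2.13, SE 0.24, limma adjusted p = 9.83e-10) and OC exceeded it 4.01-fold, with no overlap in either. The difference of IVF from OC was -0.02 (interval -0.46 to 0.42), but it was 0.53 with quantile normalisation (limma adjusted p = 0.00951) and -0.70 with median centring (adjusted p = 0.00485). OC arrays themselves spread from 0.61 to 2.68.

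Kat5 encodes TIP60, the catalytic subunit of NuA4. Its group means ran from -0.21 in Spi-C 1.0 to 0.51 in OC. It was lower than OC in IVF (-0.50, SE 0.16, limma adjusted p = 0.00537) and in TSA(-) (-0.69, SE 0.15, limma adjusted p = 7.34e-05), and lower in TSA(-) than in Cumulus (-0.55, limma adjusted p = 0.00556). The IVF call was lost without any of OC replicates 3, 5 and 6 and IVF replicates 1 and 2 (adjusted p = 0.0103 to 0.0159), and with quantile normalisation (adjusted p = 0.0283), a fit of the 2 groups alone (0.027) or Tukey's test (0.0272). The Cumulus call was lost without TSA(-) replicate 8 (adjusted p = 0.0113) or Cumulus replicate 2 or 3 (0.0757 and 0.0159). It was also lost by Tukey's test (adjusted p = 0.0237) and when only TSA(-) and Cumulus were fitted (limma adjusted p = 0.02).

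Hat1 had the largest fall after the oocyte stage. OC spanned 4.73 to 5.93 (median 5.63) and IVF 0.15 to 0.52 (median 0.43). TSA(-) spanned 0.78 to 1.497 (median 1.25) and TSA(+) 0.68 to 1.34 (median 1.30). The Spi-C 1.0 arrays read 1.26, 1.31, 1.33 and 1.36, the Spi-C 0.1 arrays 0.80, 0.91, 0.98 and 1.18, and the Cumulus arrays 1.84, 1.98, 2.02 and 2.20. OC stood apart above Cumulus, Cumulus above all clones, and all clones above IVF. From OC to IVF Hat1 fell by 5.18, or 36.2-fold (SE 0.15, limma adjusted p = 5.28e-26). With quantile normalisation the difference was -3.62, and with median centring -5.86. The median probe shifted by -0.88 in the same comparison. Against IVF, Hat1 was 1.77-fold higher in TSA(-) (0.83, SE 0.14, limma adjusted p = 2.66e-05) and 1.76-fold higher in TSA(+) (0.82, SE 0.15, limma adjusted p = 8.09e-05). Within scan days the TSA(-) difference was 0.52 to 1.13, in 4 of 4 days, and no alternative setting ended either call. The difference between TSA(+) and TSA(-) was -0.01 (interval -0.30 to 0.28). TSA(-) remained below Cumulus by 0.81 and below OC by 4.35.

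**Figure D3:**
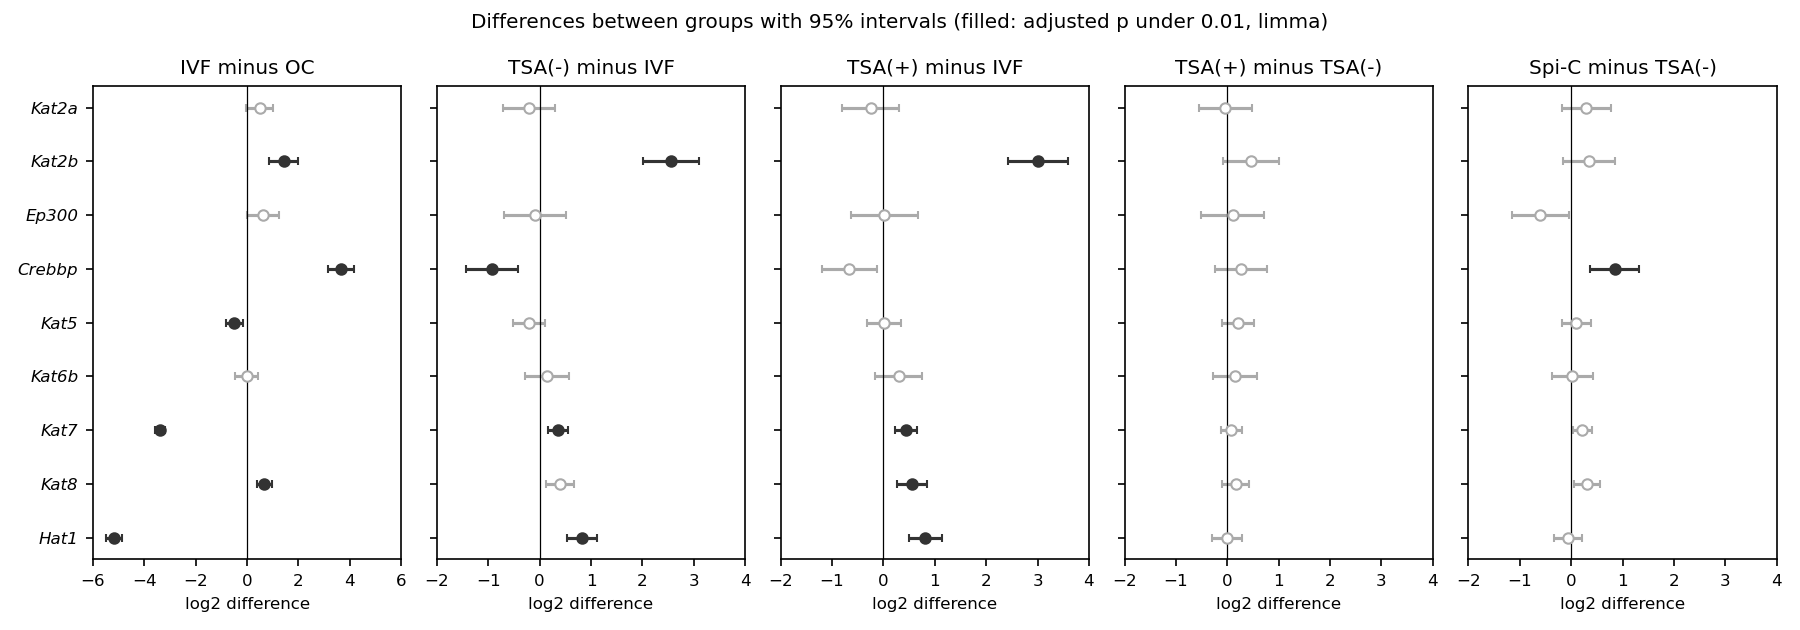
Log2 difference of each gene (leading probe) with its 95% interval in 5 comparisons. Filled points had an adjusted p under 0.01 in limma, and the axis of IVF minus OC is wider than the others. Kat2b and Hat1 were higher than IVF in TSA(-) and TSA(+), and no gene passed between TSA(+) and TSA(-).

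The comparisons were read against the share of all 16283 named genes that passed the same test. From OC to IVF, 3 of 9 genes were higher (Crebbp, Kat2b and Kat8) and 3 lower (Hat1, Kat7 and Kat5), against 28.3% and 45.1% of all genes. With median centring, 1 was higher and 4 lower, against 22.2% and 55.6%, and with normexp 2 and 4, against 21.4% and 63.1%. From OC to TSA(-), again 3 were higher and 3 lower, against 27.5% and 49.9%, and with normexp 2 and 3, against 21.1% and 65.9%. TSA(-) against IVF gave 3 higher (Kat2b, Hat1 and Kat7) and 1 lower (Crebbp), against 11.3% and 15%. TSA(+) against IVF gave 4 higher (Kat2b, Hat1, Kat8 and Kat7) and none lower (1 lower with normexp, Crebbp), against 11.8% and 15.9%, or 15.7% and 10% with median centring. The median over the 9 genes was 0.15 for TSA(-) and 0.29 for TSA(+), and over all genes -0.11 and -0.20.

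Between TSA(+) and TSA(-) no histone acetyltransferase gene passed the threshold. The count was 0 of 9 in limma, 0 by Tukey's test and 0 at an unadjusted p under 0.05. The background by limma adjusted p was 0.129% of genes higher and 0.147% lower, or 0.59% and 0.0491% with median centring and 1.03% and 0.411% with normexp. The differences ran from -0.04 (Kat2a) to 0.46 (Kat2b), and no interval reached further up than that of Kat2b, -0.09 to 1.003. Within 3 of 3 scan days TSA(+) read higher for Kat2b, by 0.60 to 0.94, while the dimmer Kat2b probe gave -0.22 over all arrays.

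Clones that received Spi-C mRNA, averaged over both doses, differed from TSA(-) in 1 of 9 genes, against 9.66% of all genes higher and 7.84% lower. With median centring these shares were 5.82% and 11.8%, and with normexp 10.7% and 25.3%. The 1 gene was Crebbp (0.84, or 1.79-fold, SE 0.23, limma adjusted p = 0.00601), and the groups overlapped. This call was lost without TSA(-) replicate 1, 3, 5 or 6, Spi-C 1.0 replicate 3 or 4, or Spi-C 0.1 replicate 1 or 4 (adjusted p = 0.0103 to 0.0173). It was also lost with quantile normalisation (limma adjusted p = 0.0397) and with median centring (0.0326). At an unadjusted limma p under 0.05, 4 genes passed, and by Tukey's test 0. The shares of all genes by these 2 criteria are not given here, so these counts have no background to be read against. Between the doses of 1.0 and 0.1 mg/ml, 0 of 9 genes passed in limma, 0 by Tukey's test and 0 at an unadjusted p under 0.05, against 0% of named genes in each direction by limma adjusted p. These differences ran from -0.38 (Crebbp) to 0.35 (Hat1). The 4 Hat1 levels at 1.0 mg/ml were all above those at 0.1 mg/ml (interval of the difference -0.03 to 0.73). For Kat7 they were all below (difference -0.07, interval -0.34 to 0.19). The share of all genes without overlap between the doses was not counted.

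Against the donor cells, OC had 5 genes higher (Hat1, Kat7, Crebbp, Kat6b and Ep300) and 2 lower (Kat2b and Kat8), with 47% of all genes higher and 30.1% lower. TSA(-) had 4 higher (Crebbp, Kat6b, Ep300 and Kat7) and 3 lower (Kat2b, Hat1 and Kat5), with 33.3% higher and 31.4% lower. With median centring TSA(-) had 2 higher and 5 lower, against 23.6% and 46.2%, and with normexp 4 and 3, against 29.3% and 45.6%. The Kat7 call was lost without TSA(-) replicate 3, 7 or 8 or any 1 of the 4 Cumulus arrays (0.32 to 0.38, adjusted p = 0.0101 to 0.0258). It was also lost when only TSA(-) and Cumulus were fitted (limma adjusted p = 0.059).

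The partners of these enzymes were read from 9 lists, with 78 genes measured of which 21 were higher and 48 lower in IVF than in OC (median -0.996, against -0.71 over all genes, of which 28.3% were higher and 45.1% lower). With quantile normalisation the counts were 33 and 29, against 32.1% and 36.1% of all genes. Counts within lists are read against the same shares. Of the 19 SAGA and ATAC subunits, 4 were higher and 11 lower, with the largest changes in Dr1, a TBP-binding subunit (5.11, adjusted p = 3.04e-22), Tada2a, an adaptor (-3.81) and Yeats2, a reader of acylated lysine (3.59). Of the 14 NuA4 subunits, 5 were higher and 9 lower, led by Morf4l2 (-2.57), Ep400, the remodelling ATPase (-2.41) and Dmap1 (2.22). Of 7 MOZ, MORF and HBO1 subunits, 4 were higher and 2 lower. Jade1, a scaffold of HBO1, read 166-fold higher in IVF by the measured values, but was not well above background on any OC array. Ing5 was lower (-4.36) and Brpf1, a scaffold of MORF, higher (3.97).

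Of the 8 MSL and NSL subunits, 1 was higher, Kansl3 (5.58, with 3 of 7 OC arrays well above background), and 7 were lower, led by Msl1, the scaffold of MSL (-3.04) and Wdr5 (-2.80). Both histone-binding partners of HAT1 were lower, Rbbp7 by -2.97 and Rbbp4 by -2.72. Of the 10 cofactors of p300 and CBP, 2 were higher, Cited1 (4.76) and Creb1 (1.97), and 6 were lower, led by Cited2 (-2.21). Of 3 BET readers, Brd3 was higher (1.90) and Brdt lower (-2.04). Of 7 genes of acetyl-CoA supply, 2 were higher, Acss1, a mitochondrial acetyl-CoA synthetase (6.06, with 1 of 7 OC arrays well above background), and Pdha1 (1.93), and 4 lower, led by Acly, the cytosolic ATP citrate lyase (-1.13). Among 8 other acetyltransferases, 2 were higher and 6 lower, with Gtf3c4 (8.83), Esco2 of sister chromatid cohesion (-3.96) and Clock (-1.78) changing most.

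**Figure D4:**
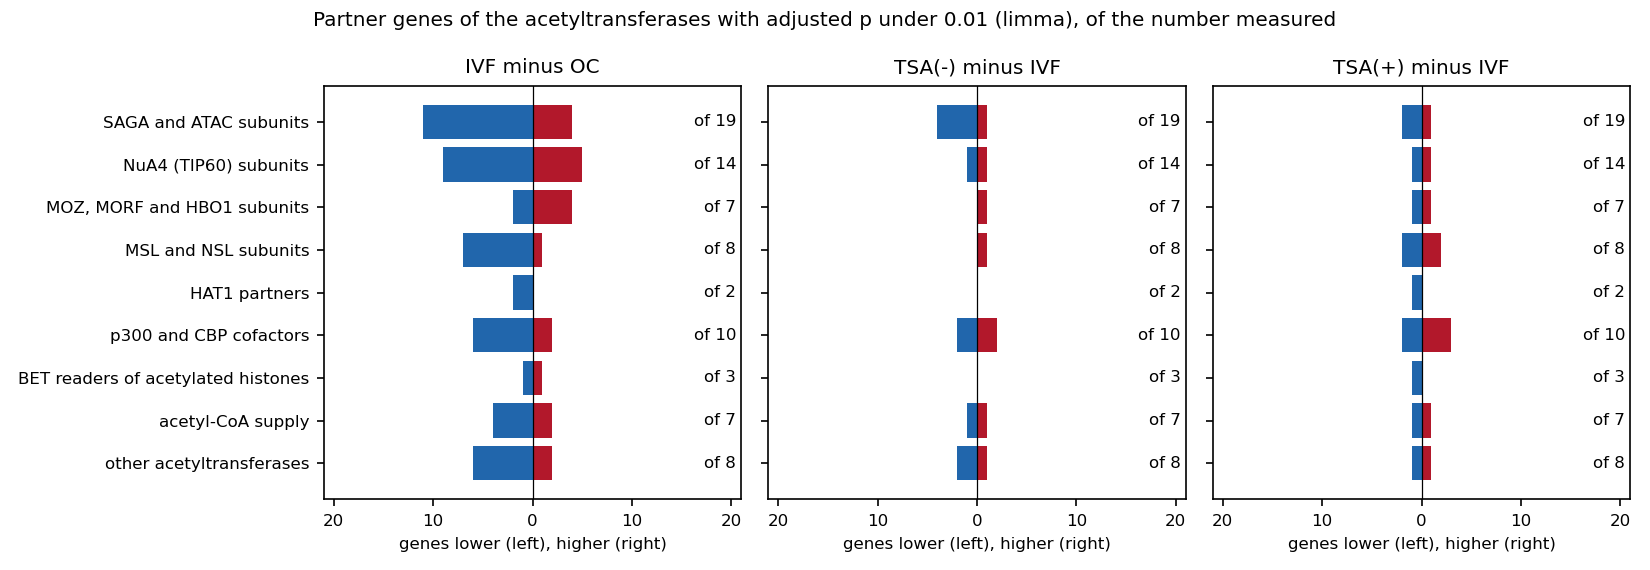
Number of partner genes with an adjusted p under 0.01 in limma, lower (bars to the left) or higher (bars to the right) in the first group named, by list, with the number measured at the right. Most changes lay between oocyte and fertilised embryo (21 higher and 48 lower of 78), with 8 and 10 for TSA(-) and 10 and 12 for TSA(+) against IVF. The same order held over all named genes, with 28.3% higher and 45.1% lower, 11.3% and 15%, and 11.8% and 15.9%.

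In TSA(-) against IVF, 8 of the 78 partner genes were higher and 10 lower (median -0.14, against -0.11 over all genes, of which 11.3% were higher and 15% lower). With normexp the counts were 10 and 17, against 12.8% and 22%. In SAGA and ATAC, Tada2a was higher (0.77) and 4 were lower, with Mbip (-1.11), Eny2 (-0.94) and Sgf29 (-0.94), a reader of methylated H3, changing most among them. In NuA4, Ruvbl2, an AAA+ ATPase, was higher (1.05) and Epc1 lower (-0.42). Ing4 (1.15) was the 1 gene higher of the MOZ, MORF and HBO1 list, and Mcrs1 (0.89) of the MSL and NSL list. Among cofactors of p300 and CBP, Cited1 (-1.68, adjusted p = 1.08e-08) and Cited2 (-1.61, adjusted p = 1.65e-09), which compete for a domain of p300 and CBP, were lower, while Creb1 (1.38, adjusted p = 1.18e-07) and its coactivator Crtc2 (1.03) were higher. Acss2, the nuclear and cytosolic acetyl-CoA synthetase, was higher (1.82) and Dlat lower (-0.47). Of other acetyltransferases, Nat10 was higher (1.16), and Naa10 (-1.22) and Naa60 (-0.68) lower. The HAT1 partners and BET readers had no call. These p-values are from limma over all probes.

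TSA(+) against IVF gave 10 higher and 12 lower of the same 78, against 11.8% and 15.9% of all genes. The balance turned with the scaling, to 14 and 6 with median centring, against 15.7% and 10% of all genes. With quantile normalisation the counts were 16 and 11, against 14.4% and 13.8%. Called were Tada2a (1.01), Eny2 (-0.97) and Atxn7 (-0.90) of SAGA and ATAC, and Epc1 (-0.98) and Ruvbl2 (0.97) of NuA4. Ing4 (1.46) and Jade2 (-0.78) passed for MOZ, MORF and HBO1, and Msl1 (-1.16), Mcrs1 (0.88) and Msl3 (-0.58) led the 4 called for MSL and NSL. Creb1 (1.52), Cited2 (-1.34) and Cited1 (-1.06) led the 5 called cofactors of p300 and CBP. Rbbp7 (-0.48), Brdt (-0.60), Acss2 (2.08), Dlat (-0.51), Naa10 (-1.19) and Nat10 (1.06) were the others. The comparison of TSA(+) with TSA(-) gave none in either direction, against 0.129% and 0.147% of all genes. With quantile normalisation its counts were 0 and 1, against 0.356% and 0.283%. Spi-C against TSA(-) gave 7 higher and 10 lower, against 9.66% and 7.84% of all genes. With median centring the counts were 1 and 18, against 5.82% and 11.8%. Cited4 (1.17), Ncoa1 (1.13) and Cited2 (0.69) led the 4 cofactors of p300 and CBP that were higher. Esco2 (-1.66), Naa60 (0.72) and Nat10 (-0.70) led the 4 other acetyltransferases called. Usp22 (-1.20), Supt7l (-0.90) and Eny2 (-0.79) of SAGA and ATAC, Yeats4 of NuA4 (-0.75), Msl3 (-0.62) and Mcrs1 (-0.56) of MSL and NSL, Rbbp7 (-0.65) and Pdhb (-0.45) were lower, and Jade2 (0.56) was higher. Between the doses none passed.

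Across all 39 arrays, which share groups and scaling, levels of Kat7 and Hat1 correlated with r = 0.95, Kat2b and Kat8 with 0.83 and Kat6b and Ep300 with 0.79. Kat7 and Kat8 ran opposite (r = -0.77). Of 15688 other named genes, those among the most like each gene were Commd4 (r = 0.96) for Kat2b, Lhpp (0.97) and Prr5 (0.97) for Crebbp, Kctd5 (0.99) and Dennd2a (0.99) for Kat7, and Cog3 (0.99) and Arcn1 (0.99) for Hat1. For the other members the best likeness was lower, with Ubxn1 (0.93) for Kat8, Dcaf1 (0.91) for Kat6b, Gid8 (0.81) for Kat5, Cep57 (0.81) for Ep300 and Usf2 (0.74) for Kat2a. These correlations are descriptions over arrays of 7 groups.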

How the data were processed

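Scanner files of 39 arrays were used. The authors scanned the arrays and extracted intensity values with Agilent Feature Extraction (version 9.5.3.1 per the labels, 10.5.1.1 in the headers of the Spi-C and Cumulus files), whose processed signals, background-subtracted, are the deposited intensity. Their deposited table of log2 values, made in Gene Spring, served as an alternative. Its columns correlated at 0.9998 to 1.0 with the scanner values once each probe was centred on its median over arrays, and its column medians ran from -0.30 to 1.08. Control and outlier spots were left out, log2 intensity was reduced by the 75th percentile of the array, and 39517 of 41174 probes were tested, those that reached 10 intensity units in any IVF or SCNT array. Probes were named through RefSeq accessions (23374 with 1 symbol), and a gene was described by its leading probe, that of highest mean level. limma (3.58.1, R 4.3.3) was fitted to all 7 groups, with Benjamini-Hochberg adjusted p under 0.01 over all probes. The fit was tested on simulated data, where estimates were unbiased and false calls rare, but most probes given the smaller of 2 changes and part of those given the larger were not called at this threshold. A first criterion on recovery was not met and was replaced by one on bias, direction and false calls. A gene not called may therefore still differ. Intervals are 95% intervals of limma, and the number of arrays limits their precision. Normexp used an offset of 50. Tukey's test is the one the study's methods name. All genes of the list are named, with the 3 largest changes called in each partner list and up to 2 genes most like each member, of which 1 is not reported here. The members, partner lists and markers were chosen with earlier results of these data known. The sum of cumulus cell markers without Amhr2 was added after seeing the data. Replicate numbers did not pair arrays: deviations of same-numbered arrays correlated at -0.09 to 0.15 over 97 pairs. No 2 arrays of a group held identical values (r 0.944 to 0.974). Probe positions in the transcripts were not analysed here.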

Additional observations from a re-analysis of the deposited data

Results flagged for a closer look

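In 63 groups of arrays tested by gene, 5 held 1 array far from the others, where chance gives about 1 in 20. Kat2a had 3 of them. OC replicate 2 read -3.60, below the other 6 arrays at -2.19 to -1.68. TSA(+) replicate 1 read -1.005, above the other 5 at -2.31 to -1.92. Spi-C 0.1 replicate 2 read -0.91, above the other 3 at -1.70 to -1.61. TSA(+) replicate 1 was also low for Hat1, at 0.68 against 1.21 to 1.34. For Kat5, Spi-C 1.0 replicate 4 read -0.33 against -0.19 to -0.16. Kat2a passed no test with or without these arrays, and the Hat1 call of TSA(+) against IVF held without replicate 1.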

How the results depend on the processing

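The count of genes called in Spi-C against TSA(-) was 1, and became 0 with median centring, Tukey's test or the replicate block, 3 with normexp, and 0 to 1 when 1 array was left out. With quantile normalisation it stayed at 1, but Kat7 (0.33, limma adjusted p = 0.0014) was called in place of Crebbp (0.81, limma adjusted p = 0.0397). Counts in the other 8 comparisons stayed within 1.5 times. Of the values of single genes and their counts, 1120 kept their call or lack of one under another setting. A further 25 lost the call, 12 gained it and 4 turned. Those 4 were Kat6b in IVF minus OC with quantile normalisation (0.53), Kat8 in IVF minus OC (-0.0055) and Kat7 in TSA(-) minus Cumulus (-0.51) with median centring, and Kat2b in IVF minus OC with normexp (-0.53). A difference counted as turned only if it changed sign and was called in the main fit or under the other setting. Differences called in neither counted as kept even where the sign changed, as for Ep300 in IVF minus OC with median centring (-0.05). Leaving out 1 array lost 31 calls, gained 2 and turned no called difference. Some uncalled differences changed sign, as for Kat6b in IVF minus OC (-0.20 to 0.15). With the replicate block, Kat2b in TSA(-) minus IVF was 2.49 and Hat1 0.79. It ended the calls of Kat7 in TSA(-) minus IVF (0.29, limma adjusted p = 0.034) and TSA(-) minus Cumulus (0.29), of Kat5 in TSA(-) minus Cumulus (-0.52) and of Crebbp in Spi-C minus TSA(-) (0.92), and made that of Kat8 in TSA(-) minus IVF (0.49). Slide as a fixed block left no value for Cumulus or for Spi-C against TSA(-). Dim signal limits Crebbp in OC and Cumulus and Kat2b in OC. Over all named genes, normexp raised the calls of TSA(+) against TSA(-) from 0.129% higher and 0.147% lower to 1.03% and 0.411%, and those of Spi-C against TSA(-) from 9.66% and 7.84% to 10.7% and 25.3%. The partner genes of the latter went from 7 higher and 10 lower to 11 and 17. The cause of these changes was not tested.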
